A study of Mus musculus with 40 samples.

Results

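The whey protein genes Wap, Lalba and Expi and the secreted milk protein gene Glycam1 were read by symbol from an expression table of the mouse mammary gland. All 4 were found among 22552 genes, and all 4 were among the 14273 genes that reached 1 FPKM (a fragment count corrected for transcript length and library size) in at least 1 group. Expi is the older symbol of Wfdc18. The genes were chosen as a list and not for their values, although earlier results of these data were known.

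Poly(A) RNA of whole mammary tissue from outbred mice was sequenced in 31 libraries, which form 12 groups of 2 or 3. The Ezh2 KO mice (Ezh2f/f;control in the labels) carry floxed Ezh2 alleles and the Cre transgene that deletes them. The Ezh1 het Ezh2 KO mice (E1+/-;E2f/f;control) also lack 1 Ezh1 allele, and the Ezh1 KO mice (E1-/-) lack both. Controls carry MMTV-Cre alone, so the transgene of the Ezh2 KO mice is also present in them, while the label of the Ezh1 KO mice names no Cre. These 4 genotypes were sampled on days 13 and 18 of pregnancy with 3 libraries each, except that day 18 Ezh1 KO had 2. Virgin mice aged 12 weeks were sampled as Ezh2 KO and control, with 2 libraries each after prolactin at 5 µg per g and 2 each without it. The untreated gland was the left one, taken first and freed of its lymph node, and the right gland followed 2 h after the injection, with no word on its lymph node. MMTV-Cre acts in the mammary epithelium, and the tissue also holds fat, stroma and other cells that need not carry the deletion.

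The table gives 1 value per group, so no difference below has a replicate check, an SD or a p-value. Fewer cells of a type and less RNA per cell cannot be told apart in such bulk values. Differences are log2(FPKM + 1) of the first group minus the second, a gene was counted as higher or lower at a difference of 1 or more in size, and folds are ratios of FPKM. Ezh1 stood at 0.627 to 1.06 FPKM in the Ezh1 KO groups against 7.37 to 14.7 in the pregnant controls. Ezh2 stood at 13.7 FPKM in day 13 Ezh2 KO against 12.9 in control, and at 6.41 against 10.01 on day 18, so whole-gene values leave the Ezh2 label unchecked on day 13. The 12 luminal epithelial markers had a geometric mean of 136 FPKM in day 13 Ezh2 KO and 74.7 to 96.4 in the other 7 groups of pregnant mice. In virgin glands it was 37.5 to 45.1 FPKM in Ezh2 KO and 67.3 to 69.6 in control. The day 13 control also held 10514 FPKM in summed skeletal muscle genes, against 37.4 to 2589 in the other day 13 groups. Its 5 erythroid genes summed to 2063 FPKM, against 346 in Ezh2 KO, 447 in Ezh1 het Ezh2 KO and 455 in Ezh1 KO. The part of muscle and erythroid RNA in the day 13 differences was not tested.

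Whey is the part of milk that stays in solution when the caseins are taken out. Wap encodes whey acidic protein, a main whey protein of rodents, and Expi encodes a small secreted protein of the same family, built on the WAP four-disulfide core. Lalba encodes alpha-lactalbumin, which binds the galactosyltransferase B4GALT1 and turns it into lactose synthase, so that lactose and with it water enter milk. Glycam1 encodes a mucin-like protein that is secreted into milk by alveolar cells, and that is also made by the high endothelial venules of lymph nodes, where a sulfated form binds L-selectin on lymphocytes. Alveolar cells turn these genes on through pregnancy under prolactin, which acts through its receptor, the kinase JAK2 and the transcription factor STAT5, together with glucocorticoid and ELF5. Polycomb repressive complex 2 places a silencing methyl mark on histone H3, and either EZH1 or EZH2 can serve as its enzyme.

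The upstream promoter of each member is shown because the series also profiled STAT5 on chromatin, in libraries not analysed here, and because the day 13 results below concern all 4 genes. The sequences are the 250 bases before the annotated start, from RefSeq on GRCm38.p6, and each gene matched 1 entry. They are written 5′ to 3′ on the gene's strand, with matches to AGGAAG (an ETS-type motif, read as CTTCCT from the other strand) and to TTCNNNGAA (the STAT5-type palindrome) in capitals. Wap lies at chr11:6638650-6638899 on the minus strand, Lalba at chr15:98482684-98482933 on the minus strand, Wfdc18, which is Expi, at chr11:83708754-83709003 on the plus strand and Glycam1 at chr15:103565082-103565331 on the minus strand.
Wap: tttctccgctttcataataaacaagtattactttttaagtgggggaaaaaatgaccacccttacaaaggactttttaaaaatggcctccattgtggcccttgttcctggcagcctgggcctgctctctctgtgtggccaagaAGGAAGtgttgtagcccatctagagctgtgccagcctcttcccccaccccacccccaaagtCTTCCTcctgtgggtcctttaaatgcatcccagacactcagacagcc
Lalba: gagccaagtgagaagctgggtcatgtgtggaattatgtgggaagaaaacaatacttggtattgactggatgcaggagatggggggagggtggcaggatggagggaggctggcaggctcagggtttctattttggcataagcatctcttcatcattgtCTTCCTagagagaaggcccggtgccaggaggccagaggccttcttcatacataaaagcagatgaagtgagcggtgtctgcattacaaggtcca
Wfdc18: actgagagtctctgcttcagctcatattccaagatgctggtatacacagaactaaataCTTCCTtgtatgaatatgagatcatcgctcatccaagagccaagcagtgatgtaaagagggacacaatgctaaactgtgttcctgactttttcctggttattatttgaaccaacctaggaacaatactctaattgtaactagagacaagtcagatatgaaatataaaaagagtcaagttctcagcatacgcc
Glycam1: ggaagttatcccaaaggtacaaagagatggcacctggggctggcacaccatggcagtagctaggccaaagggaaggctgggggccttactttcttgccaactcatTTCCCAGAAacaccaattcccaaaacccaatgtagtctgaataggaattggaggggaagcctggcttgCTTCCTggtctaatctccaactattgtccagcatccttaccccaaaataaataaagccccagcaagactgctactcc

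All 4 windows held AGGAAG on either strand, as did 29.5% of 32851 promoter windows of the same length. Wap held it at 2 places, from -108 to -103 and from -47 to -42 before the start. TTCNNNGAA was found in Glycam1 alone, as TTCCCAGAA from -145 to -137, and in 7.02% of all windows. The form of this palindrome with 4 spacer bases was in none of the 4 and in 5.85% of all windows. TATAAA stood in Wfdc18 from -31 to -26 (12.4% of all windows) and TTTAAA in Wap from -30 to -25 and again further out (12.1%). TTGGC, a nuclear factor I half-site, was in all 4 and in 41.5% of all windows, and the full nuclear factor I palindrome was in none of the 4 and in 0.0365%. None of these matches overlapped another, both strands were searched, and a window with no match says nothing about sites further away. The 4 windows also held few CpG dinucleotides, from 0 in Glycam1 and 1 in Wap to 2 in Lalba and Wfdc18, against a median of 6 over all windows, of which 29.0% held 2 or fewer.

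The 4 genes differed in where they began. In virgin glands Wap was at 0.242 and 0.174 FPKM in Ezh2 KO with and without prolactin, at 0.10 in control with prolactin, and was listed at 0 in control without it. Expi was already high there, at 209.8 FPKM in Ezh2 KO with prolactin, 97.6 in Ezh2 KO without it, 655 in control with it and 249 in control without it. On day 13 Expi ranged from 3278 to 6877 FPKM and ranked among the 5 to 13 highest genes of every group, while Wap ranked no higher than 282. By day 18 Glycam1 was the gene of rank 3 in all 4 genotypes and Wap of rank 5 or 6. The 4 genes together made up 8.92% of summed FPKM in day 18 Ezh2 KO, 11.9% in Ezh1 het Ezh2 KO, 12.8% in Ezh1 KO and 12.6% in control. On day 13 the same sums were 2.76%, 1.65%, 0.922% and 0.552% in that order of genotypes. The plot of levels in all groups shows that Expi spans the narrowest range of the 4.

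**Figure D1:**
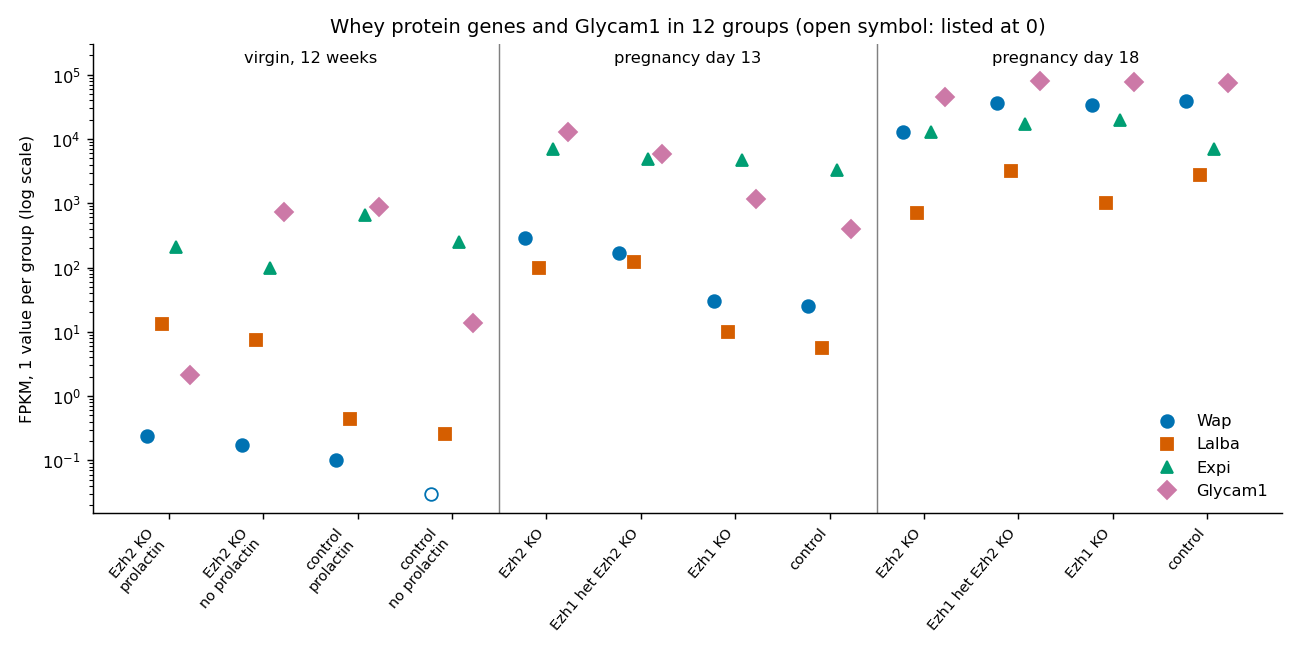
FPKM of Wap, Lalba, Expi and Glycam1 (log axis) in the 12 groups, 1 pooled value per group with no error bar, in 3 blocks for virgin, day 13 and day 18 glands. Wap runs from being listed at 0 in untreated virgin control to 38474 FPKM in day 18 control, while Expi is at 97.6 FPKM or more everywhere.

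On day 13 all 4 genes stood higher in Ezh2 KO than in control by the 1 log2 unit threshold, a difference that 2.65% of all genes kept showed in that direction. None was lower, against 6.59% of all genes. Wap was at 291 FPKM in Ezh2 KO, 169 in Ezh1 het Ezh2 KO, 30.3 in Ezh1 KO and 24.99 in control. Lalba, the lactose synthase subunit gene, was at 99.4 FPKM in Ezh2 KO, 121 in Ezh1 het Ezh2 KO, 10.1 in Ezh1 KO and 5.53 in control. Both genes thus formed a high pair, the groups labelled with Ezh2 deletion, and a low pair, Ezh1 KO and control. The level of Glycam1 was 12834 FPKM in Ezh2 KO, 5755 in Ezh1 het Ezh2 KO, 1151 in Ezh1 KO and 396 in control. Neighbouring groups in that order differed by 2.23-fold, 5.00-fold and 2.91-fold. Expi, the WAP-domain gene, was at 6877 FPKM in Ezh2 KO, 4800.3 in Ezh1 het Ezh2 KO, 4736 in Ezh1 KO and 3278 in control, a span of 2.10-fold, and the middle 2 groups differed by 1.01-fold.

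Against control, Ezh2 KO was 11.6-fold higher for Wap, 18.0-fold for Lalba, 2.10-fold for Expi and 32.4-fold for Glycam1. In Ezh1 het Ezh2 KO 3 of 4 genes were higher past the threshold, against 3.12% of all genes kept, and Expi was not (difference 0.55). None of the 4 was lower there, against 3.19% of all genes. In Ezh1 KO only Glycam1 was higher past the threshold, by 1.54, against 2.10% of all genes kept, and the other 3 differed by 0.27 to 0.76. None was lower, against 2.28% of all genes. The median difference of the 4 genes was 3.72, 3.28 and 0.65 in these comparisons, which share the control group, and that of all genes kept lay between -0.02 and 0.01. The day 13 control stood apart in muscle genes, and Ezh1 KO had the next highest muscle sum, 2589 FPKM. Ezh2 KO stood at only 40.5 FPKM, with Ezh1 het Ezh2 KO at 37.4. Because of the control, the same contrasts were also taken against Ezh1 KO, which did not even out muscle RNA. Ezh2 KO was then 9.58-fold higher for Wap, 9.86-fold for Lalba, 11.1-fold for Glycam1 and 1.45-fold for Expi, and Ezh1 het Ezh2 KO 5.57-fold, 12.0-fold, 5.00-fold and 1.01-fold. Expi was therefore not past the threshold in Ezh2 KO without the control group. Expi was also within it when groups were scaled to a common level of the 12 luminal markers (difference 0.38), whereas Wap then differed by 2.80, Lalba by 3.25 and Glycam1 by 4.32. Of the adipocyte markers, 11 of 13 were lower and none was higher in day 13 Ezh2 KO than in control (median -1.35). Their summed share of FPKM was 2.30% in Ezh2 KO, 4.597% in Ezh1 het Ezh2 KO, 4.15% in Ezh1 KO and 6.45% in control, and none of them was at 0. The part of the epithelial and fat content of the tissue in the day 13 differences was not tested.

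Between the groups labelled with Ezh2 deletion on day 13, Ezh1 het Ezh2 KO against Ezh2 KO, Glycam1 was lower past the threshold (difference -1.16), as were 0.666% of all genes kept, and none was higher, against 2.80%. Wap differed by -0.78, Expi by -0.52 and Lalba by 0.28. With a common luminal level Glycam1 differed by -0.46, and none of the 4 genes passed the threshold.

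On day 18 the 4 genes differed in direction. Wap was at 12683 FPKM in Ezh2 KO, 36766 in Ezh1 het Ezh2 KO, 33251 in Ezh1 KO and 38474 in control, so that Ezh2 KO alone stood low. The level of Lalba was 717 FPKM in Ezh2 KO, 3153 in Ezh1 het Ezh2 KO, 1021 in Ezh1 KO and 2785 in control, and both Ezh2 KO and Ezh1 KO stood low. For Glycam1 the values were 44127 FPKM in Ezh2 KO, 80634 in Ezh1 het Ezh2 KO, 77384 in Ezh1 KO and 75375 in control, and the last 3 lay within 1.07-fold of each other. Expi was lowest in control, unlike the other 3 genes, with 12764 FPKM in Ezh2 KO, 17057 in Ezh1 het Ezh2 KO, 19882 in Ezh1 KO and 6928 in control, and among the 3 mutant groups it was lowest in Ezh2 KO, as the others were.

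Counted by the threshold, Ezh2 KO on day 18 had 2 of 4 genes lower than control, Wap by a difference of -1.60 and Lalba by -1.96, against 2.14% of all genes kept, and none higher, against 2.38%. Glycam1 was at a difference of -0.77 and Expi at 0.88, which is 1.198 with groups scaled to a common sum. Ezh1 KO had Lalba lower (-1.45, against 1.39% of genes) and Expi higher (1.52, against 1.21% of genes), with Wap at -0.21 and Glycam1 at 0.04. Ezh1 het Ezh2 KO had only Expi higher (1.30, against 1.23% of genes), and 0.93 when milk proteins were left out of the sum. None was lower, against 1.55% of genes. Its Wap, Lalba and Glycam1 differed from control by -0.07, 0.18 and 0.10. The median over the 4 genes was -1.19, -0.09 and 0.14 in the 3 comparisons, which share the control group, and that over all genes kept lay between -0.00156 and 0.00488. The geometric mean of the luminal markers on day 18 was 86.9 FPKM in Ezh2 KO, 80.03 in Ezh1 het Ezh2 KO, 94.0 in Ezh1 KO and 74.7 in control. Of 13 adipocyte markers 7 were higher and none lower in day 18 Ezh2 KO than in control (median 1.04), and their summed share of FPKM was 2.28% in Ezh2 KO, 1.10% in Ezh1 het Ezh2 KO, 1.29% in Ezh1 KO and 0.810% in control. Of 5 erythroid genes 4 were higher in day 18 Ezh2 KO (median 4.50), with a sum of 1448 FPKM in Ezh2 KO, 71.4 in Ezh1 het Ezh2 KO, 355 in Ezh1 KO and 54.3 in control. Their part in the day 18 differences was not tested. Against Ezh2 KO, the Ezh1 het Ezh2 KO group had Wap higher by 1.54 and Lalba by 2.14, against 1.16% of genes, with none lower (1.40% of genes), and Wap by 0.99 with a common sum.

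**Figure D2:**
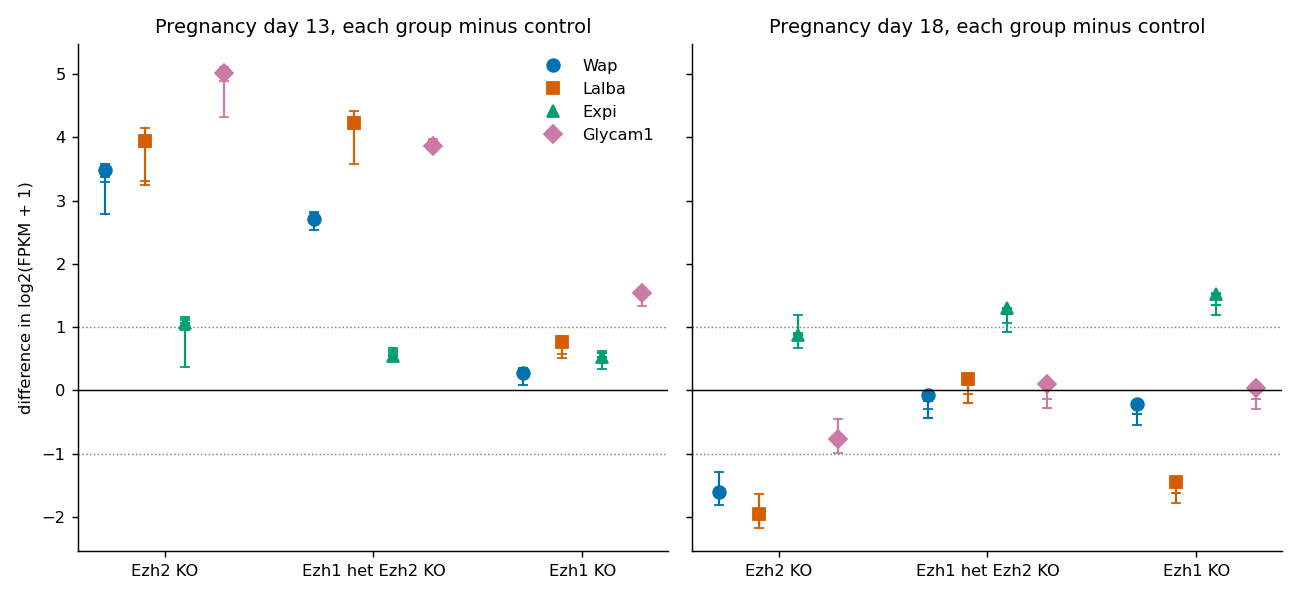
Difference in log2(FPKM + 1) of 3 genotypes from control on day 13 (left) and day 18 (right). Symbols are the deposited values, small ticks and lines the range over the other pseudocounts and scalings, and dotted lines the threshold of 1. In Ezh2 KO, Wap and Lalba lie above 0 on day 13 and below 0 on day 18, and Expi lies above 0 on both days.

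The step between the pregnancy stages was therefore different in size in each genotype. For Wap the day 18 value was 43.6-fold that of day 13 in Ezh2 KO, 218-fold in Ezh1 het Ezh2 KO, 1096-fold in Ezh1 KO and 1539-fold in control. The same folds for Lalba were 7.21, 26.1, 101 and 503, and for Glycam1 3.44, 14.01, 67.2 and 190.4. Expi stood apart, at 1.86-fold in Ezh2 KO, 3.55-fold in Ezh1 het Ezh2 KO, 4.20-fold in Ezh1 KO and 2.11-fold in control, so that its control fold was not the highest. Past the threshold were 3 of 4 genes in Ezh2 KO, against 1.10% of all genes kept, and all 4 in Ezh1 het Ezh2 KO (1.66%), Ezh1 KO (1.56%) and control (3.55%). None of the 4 was lower on day 18, while 4.10% of all genes were in Ezh2 KO, 16.0% in Ezh1 het Ezh2 KO, 12.1% in Ezh1 KO and 19.1% in control. The median over all genes kept was -0.45 to -0.48 in these comparisons. Expi in Ezh2 KO, at 0.89, passed the threshold with 4 of the other scalings, and Expi in control, at 1.08, was at 0.53 with a common sum.

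The 5 casein genes, which encode the micelle proteins of milk, gave the same order of genotypes as Wap, Lalba and Glycam1 in the step from day 13 to day 18. Their folds were 1.65 to 10.4 in Ezh2 KO, 6.69 to 21.3 in Ezh1 het Ezh2 KO, 11.3 to 70.9 in Ezh1 KO and 24.5 to 169.6 in control. The step of Wap was larger than that of each casein in all 4 genotypes. Put the other way, day 13 Ezh2 KO had already reached 60.5% of its day 18 level for Csn2, the beta-casein gene, 53.9% for Expi, 29.1% for Glycam1, 13.9% for Lalba and 2.29% for Wap. In Ezh2 KO Csn2 was the highest of the caseins by this share, and Csn1s2b the lowest, at 9.65%. In control the same shares were 3.82% for Csn2, 0.590% for Csn1s2b, 47.3% for Expi, 0.525% for Glycam1, 0.199% for Lalba and 0.0650% for Wap. All 5 caseins were higher past the threshold in day 13 Ezh2 KO than in control (median 2.94), against 2.65% of all genes. On day 18, 3 of 5 were lower in Ezh2 KO (median -1.01), against 2.14% of all genes.

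**Figure D3:**
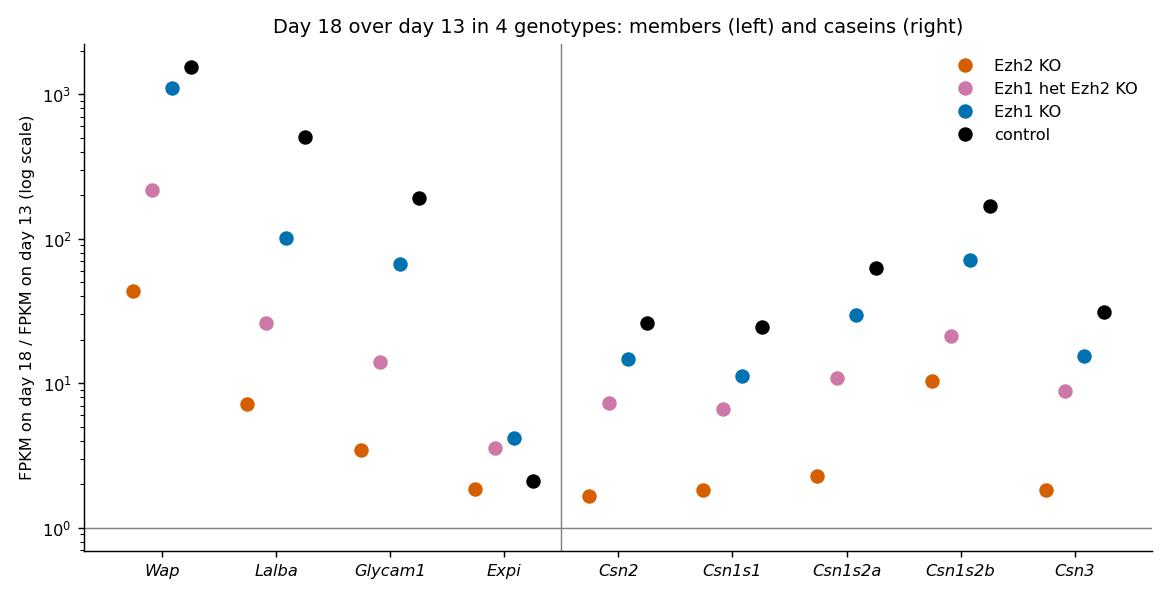
FPKM on day 18 divided by FPKM on day 13 (log axis) for the 4 genes, left of the line, and the 5 caseins, right of it, with 1 point per genotype. Ezh2 KO is lowest and control highest for every gene shown except Expi, where Ezh1 KO is highest.

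Setting each gene against Csn2 within the same group removes the scale of the library, but the share also moves with Csn2. On day 13 Csn2 was at 42713 FPKM in Ezh2 KO, 19742 in Ezh1 het Ezh2 KO, 8447 in Ezh1 KO and 5570 in control. Its day 18 levels were 70592, 144169, 124750 and 145905 FPKM in the same order. On day 18 Wap was 18.0% of Csn2 in Ezh2 KO, 25.5% in Ezh1 het Ezh2 KO, 26.7% in Ezh1 KO and 26.4% in control. Lalba was 1.02% of Csn2 in Ezh2 KO, 2.19% in Ezh1 het Ezh2 KO, 0.819% in Ezh1 KO and 1.91% in control, which sets Ezh2 KO and Ezh1 KO below the other 2. Glycam1 kept a narrow range, at 62.5%, 55.9%, 62.0% and 51.7% in the same order. Expi was 18.1%, 11.8% and 15.9% in the 3 mutant groups and 4.75% in control. The ratio of Wap to Expi FPKM was accordingly 0.994 in Ezh2 KO, 2.16 in Ezh1 het Ezh2 KO, 1.67 in Ezh1 KO and 5.55 in control. On day 13 the share of Glycam1 was 30.05% of Csn2 in Ezh2 KO, 29.1% in Ezh1 het Ezh2 KO, 13.6% in Ezh1 KO and 7.11% in control, while Expi was 16.1%, 24.3%, 56.1% and 58.9%. Wap was then 0.681%, 0.856%, 0.359% and 0.449% of Csn2, and Lalba 0.233%, 0.612%, 0.119% and 0.0993%. By this share Wap and Lalba differed less between the day 13 groups than by FPKM.

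**Figure D4:**
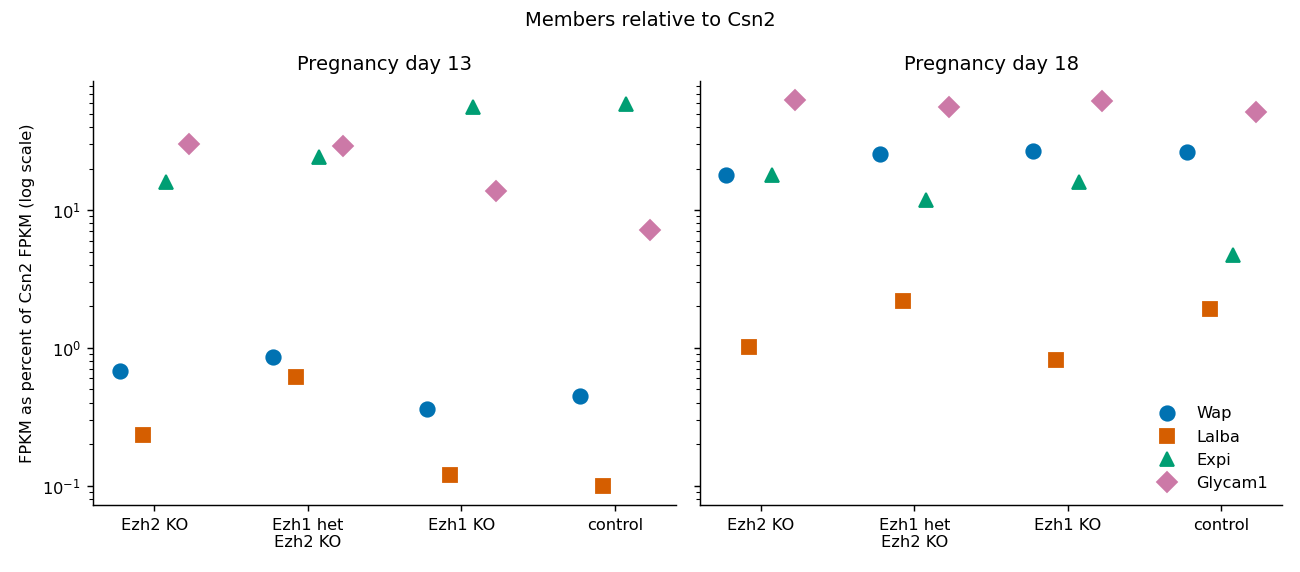
FPKM of each gene as a percent of Csn2 FPKM in the same group (log axis) on day 13 (left) and day 18 (right), 1 point per gene and genotype. On day 18 Expi is lowest in control, at 4.75%, and Lalba is lowest in Ezh1 KO, at 0.819%.

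Virgin glands gave different values for each gene. Lalba was at 13.3 FPKM in Ezh2 KO with prolactin against 0.434 in control with it, and at 7.46 in Ezh2 KO without prolactin against 0.256 in control without it. It was thus 30.6-fold and 29.2-fold higher in Ezh2 KO, differences of 3.32 and 2.75. Higher past the threshold were 0.764% and 3.35% of all genes kept. The untreated left and treated right glands may come from the same mice, so the 2 contrasts may not be independent. Expi was lower in Ezh2 KO, with differences of -1.64 with prolactin and -1.34 without it, against 2.71% and 0.911% of genes. The luminal markers were lower in virgin Ezh2 KO as well (median differences -0.66 and -0.78), and with a common luminal level Expi differed by -1.01 with prolactin and -0.50 without it. Lalba still differed by 4.03 and 3.69 at that level. Its difference depends on the pseudocount, from 1.75 to 4.65 with prolactin and from 1.25 to 4.41 without it for pseudocounts of 5 and 0.1. Caseins were higher in virgin Ezh2 KO too, 3 of 5 with prolactin (median 1.86) and 4 of 5 without it (median 1.46), and Csn1s1 was at 60.4 FPKM in untreated Ezh2 KO against 0.932 in untreated control.

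Prolactin was compared with no prolactin within each genotype. Treated and untreated glands also differed in side, in order of removal and in what is stated of the lymph node. Prolactin cannot be told apart from these. Expi was higher after prolactin in both, at 209.8 against 97.6 FPKM in Ezh2 KO (difference 1.10, against 2.75% of genes) and at 655 against 249 in control (1.39, against 4.76% of genes). In control none of the 4 was lower after prolactin, against 1.72% of genes. In Ezh2 KO the difference was 0.84 to 0.89 under 4 of the other scalings. Lalba was at 13.3 against 7.46 FPKM in Ezh2 KO and at 0.434 against 0.256 in control, differences of 0.75 and 0.19. Wap stayed at or below 0.242 FPKM in all 4 virgin groups. B4galt1, whose product Lalba's protein binds, was at 148 against 30.5 FPKM in Ezh2 KO and at 179 against 34.9 in control. Of 18 genes of prolactin and STAT5 signalling, 6 were higher and none lower in Ezh2 KO (median 0.14), against 2.75% and 4.08% of all genes. In control 6 were higher and 1 lower (median 0.32), against 4.76% and 1.72% of all genes. The feedback inhibitor gene Cish was at 51.1 against 10.96 FPKM in Ezh2 KO and at 62.3 against 6.64 in control.

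Glycam1 in virgin glands was high in the same groups as lymphocyte genes. It was at 2.10 FPKM in Ezh2 KO with prolactin, 743 in Ezh2 KO without it, 864 in control with it and 13.7 in control without it. Against control, Glycam1 in Ezh2 KO differed by -8.12 with prolactin and by 5.66 without it, and after prolactin it differed by -7.91 in Ezh2 KO (against 4.08% of genes lower) and by 5.88 in control. The 14 lymphocyte genes summed to 11.5 FPKM in Ezh2 KO with prolactin, 359 in Ezh2 KO without it, 291 in control with it and 20.96 in control without it, and none was at 0 in any of these groups. The same groups, untreated Ezh2 KO and treated control, were high for both. Of the 15 lymph node and venule genes 11 passed the filter. Between Ezh2 KO and control 2 were higher and 4 lower with prolactin, against 0.764% and 2.71% of all genes. Without it 6 were higher and none lower, against 3.35% and 0.911%. After prolactin 2 were higher and 6 lower in Ezh2 KO, against 2.75% and 4.08% of all genes. In control 6 were higher and none lower, against 4.76% and 1.72%. Chst4 and Fut7, which encode enzymes that build the L-selectin ligand in high endothelial venules, are named after their values were seen. Chst4 was at 0.0384 FPKM in Ezh2 KO with prolactin, 1.24 in Ezh2 KO without it, 1.06 in control with it and 0.0485 in control without it. Fut7 was at 0.119, 1.61, 0.752 and 0.226 FPKM in the same order. At these low levels both genes were under the threshold between Ezh2 KO and control with prolactin. They were also under it after prolactin in control. The genes that went the other way in Ezh2 KO with prolactin were Sele and Selp, which encode the endothelial adhesion molecules E-selectin and P-selectin. Sele was at 24.7 FPKM in Ezh2 KO with prolactin against 0.2996 in Ezh2 KO without it, and Selp at 67.1 against 3.61. Both were also among the 6 genes higher after prolactin in control. Unlike Glycam1, they were thus higher after prolactin in both genotypes. Of the 15 genes 4 were listed at 0 in every group, among them Ccl21a and Ccl19, and the list summed to 175, 243, 206 and 139.7 FPKM. The part of lymph node RNA in the virgin Glycam1 values was not tested. Without Glycam1, 1 of 3 genes (Lalba) was higher and 1 (Expi) lower in Ezh2 KO than in control, both with prolactin (0.764% and 2.71% of all genes) and without it (3.35% and 0.911%). After prolactin only Expi of these 3 was higher, in Ezh2 KO (2.75% of all genes) and in control (4.76%), and in Ezh2 KO it was under the threshold with 4 of the other scalings.

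On day 13 the lymphocyte sum was 22.1 FPKM in Ezh2 KO, 99.4 in Ezh1 het Ezh2 KO, 19.95 in Ezh1 KO and 15.97 in control. Glycam1 was highest in Ezh2 KO, while the lymphocyte sum was highest in Ezh1 het Ezh2 KO. The part of lymph node RNA in the Glycam1 values of pregnant mice was not tested. On day 18 the sum was 17.0 FPKM in Ezh2 KO, 75.3 in Ezh1 het Ezh2 KO, 18.985 in Ezh1 KO and 20.2 in control, beside Glycam1 levels of 44127 to 80634.

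**Figure D5:**
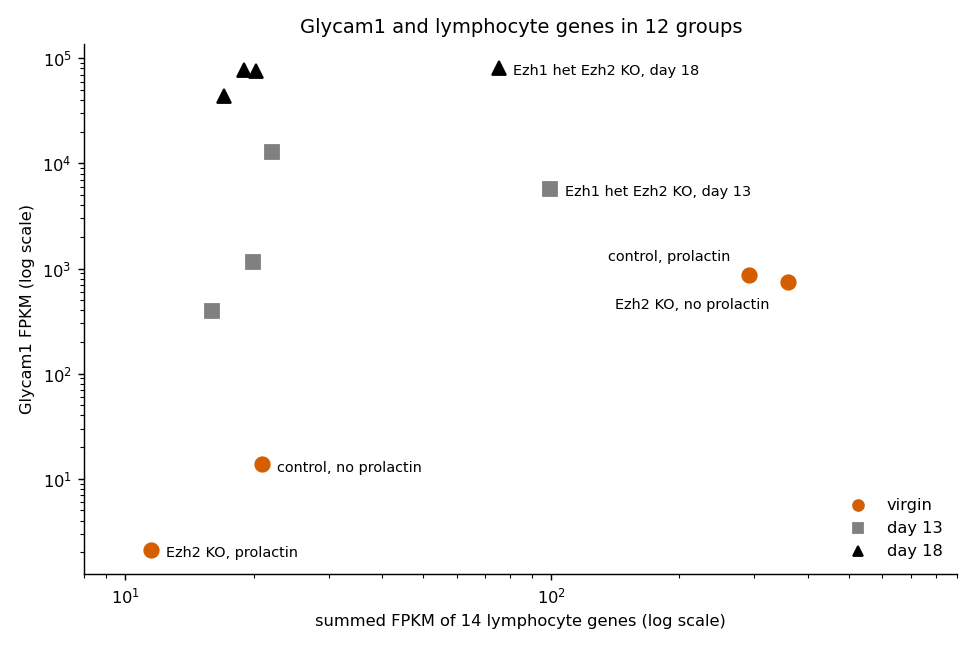
Glycam1 FPKM against the summed FPKM of 14 lymphocyte genes (both log axes) in the 12 groups, coloured by stage. The virgin groups split into a pair at 359 and 291 FPKM of lymphocyte genes with Glycam1 at 743 and 864, and a pair at 11.5 and 20.96 with Glycam1 at 2.10 and 13.7.

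Against the untreated virgin group of the same genotype, all 4 genes were higher on day 13. In Ezh2 KO the differences were 7.96 for Wap, 3.57 for Lalba, 6.12 for Expi and 4.11 for Glycam1, against 11.0% of all genes kept higher and 9.11% lower. In control they were 4.70, 2.38, 3.71 and 4.75, against 9.12% of genes higher and 2.76% lower, and Wap has no fold there because it is listed at 0 in the virgin group. With pseudocounts of 5 and 0.1 the control difference ran from 2.58 to 7.97 for Wap and from 1.00 to 3.98 for Lalba. Expi was 70.4-fold higher in Ezh2 KO and 13.2-fold higher in control. The untreated virgin Ezh2 KO group had luminal markers at 37.5 FPKM and lymphocyte genes at 359, against 67.3 and 20.96 in untreated control. With a common luminal level the differences in Ezh2 KO were 6.97 for Wap, 1.82 for Lalba, 4.28 for Expi and 2.25 for Glycam1. In control these were 4.63, 2.26, 3.40 and 4.45.

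The partners of Lalba and the relatives of Wap and Expi were read from lists. Of the other 10 genes of lactose synthesis, none was higher and 1 was lower in day 13 Ezh2 KO than in control (median 0.12), against 2.65% of all genes higher and 6.59% lower. On day 18 none was higher and 3 were lower (median -0.37), against 2.38% and 2.14% of all genes. B4galt1 was at 94.4 FPKM in day 13 Ezh2 KO against 50.2 in control, and at 125 in day 18 Ezh2 KO against 376 in control. Slc2a1, the glucose transporter gene, was at 18.4 against 45.2 FPKM on day 18 in the same groups. In day 18 Ezh1 KO, where Lalba was low, B4galt1 stood at 232 FPKM and 2 of the 10 genes were lower, against 1.39% of all genes. Of 22 other genes of the WAP domain family 19 were found and 6 passed the filter of 1 FPKM. Wfdc3 was the one higher past the threshold in day 13 Ezh2 KO, at 60.2 against 9.86 FPKM, and it reached 101 in day 18 Ezh2 KO, 192 in Ezh1 het Ezh2 KO, 171 in Ezh1 KO and 127 in control. Wfdc1 and Wfdc12 were lower, and Wfdc12 was at 103 FPKM in day 13 Ezh2 KO against 260.4 in control. Slpi, a secreted protease inhibitor gene, was at 43.7 FPKM in day 18 Ezh2 KO, 67.1 in Ezh1 het Ezh2 KO, 26.99 in Ezh1 KO and 10.3 in control, so it was lowest in control, as Expi was.

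Genes of prolactin and STAT5 signalling were also read in pregnancy. In day 13 Ezh2 KO 2 of 18 were higher than in control and none was lower (median 0.20), against 2.65% and 6.59% of all genes. They were Elf5, which encodes the alveolar transcription factor ELF5, at 402 against 131 FPKM, and Id2, an inhibitor of differentiation factors, at 176 against 80.8. Stat5a was at 57.5 against 32.1 FPKM and Prlr, the prolactin receptor gene, at 8.71 against 5.78. On day 18, 1 of 18 was higher and none lower in Ezh2 KO than in control, against 2.38% and 2.14% of all genes. In Ezh1 het Ezh2 KO none was higher and 2 were lower, against 1.23% and 1.55% of all genes. Ezh1 KO had 1 higher and 1 lower, against 1.21% and 1.39%. Elf5 was then at 369 FPKM in Ezh2 KO, 759 in Ezh1 het Ezh2 KO, 417 in Ezh1 KO and 698 in control. The same 2 groups were low as for Lalba, but in both Elf5 differed from control by less than the threshold. A link between Elf5 and Lalba was not tested.

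Across the 12 groups the 4 genes followed one another to different degrees. Pearson's r of log2(FPKM + 1) was 0.96 between Wap and Lalba, 0.90 between Wap and Expi, 0.88 between Wap and Glycam1 and 0.78 between Lalba and Expi. The points share stage and pooled libraries, so these values describe the table. Among 11117 genes with 5 FPKM or more in a group, the patterns most like that of Wap were those of Spp1 (osteopontin, r = 0.99), Folr1, Csn1s2b, Fkbp11 and Ssr4. For Lalba they were Cck, Sftpd, Cel, Spp1 and Lao1, with r from 0.97 to 0.98. For Expi they were Acot1, Nrtn, Cited4, Klc3 and Prss8, with r from 0.98 to 0.99. For Glycam1 they were Ptpn18, Tspan33, St6gal1, Pycard and Rogdi, with r from 0.93 to 0.98.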

How the data were processed

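Whole mammary tissue RNA of 31 libraries in 12 groups was used. The 9 chromatin libraries were not analysed here. FPKM values were deposited by the authors as 1 column per group, so replicates cannot be separated. The submitters' processing notes name Trim Galore, TopHat, Cufflinks and Cuffdiff and build mm9, and their versions and order are not stated there. Depth is unknown, since whole reads could not be recovered: among 1282 genes under 0.05 FPKM the most common ratio between day 13 groups covered 1.95%. No interval is given for that reason.

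Values were compared as log2(FPKM + 1) in 18 comparisons over 14273 genes with 1 FPKM or more in a group, with Python 3.11.15, pandas 2.3.3 and NumPy 2.4.6, and called at a difference of 1. The planned limma test needs replicate values and could not be fitted, so there is no p-value. The calling step was tested on simulated data. Alternatives were other pseudocounts (0.1 and 5), filters and scalings; 3 were chosen after seeing the data (Ezh1 KO in place of the day 13 control, a sum without milk, muscle and erythroid genes, and Glycam1 left out). The members and gene lists were chosen with earlier results of these data known. Genes named by likeness are the 5 with the highest Pearson r to each member. Other genes were named from their list after their values were seen. Promoters are RefSeq windows on GRCm38.p6.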

Additional observations from a re-analysis of the deposited data

Results flagged for a closer look

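Wap in Ezh2 KO differed from control in opposite directions at the pregnancy stages, by 3.49 on day 13 and by -1.60 on day 18 (log2). Lalba did the same, at 3.94 and -1.96. Glycam1 differed in opposite directions after prolactin, by -7.91 in Ezh2 KO and by 5.88 in control, and between Ezh2 KO and control, by -8.12 with prolactin and by 5.66 without it. With 1 value per group, none of these differences between effects was tested. The day 13 control held 1.57% of its summed FPKM in skeletal muscle genes, and the virgin groups high in Glycam1 were those high in lymphocyte genes. The part of either in these values was not tested.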

How the results depend on the processing

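Of 674 member differences under other settings 654 kept their side of the threshold, 13 fell under it, 7 passed it and none reversed from a called value. The count of members past the threshold moved in 10 of 170 cases. For Ezh1 het Ezh2 KO against Ezh2 KO it was 0 instead of 1 on day 13 with a common luminal level, and 1 instead of 2 on day 18 with a common sum. For Ezh1 het Ezh2 KO against control on day 18 it was 0 instead of 1 when milk proteins were left out of the common sum, and also when milk, muscle and erythroid genes were. After prolactin it was 1 instead of 2 in control without Glycam1, and 1 instead of 2 in Ezh2 KO with a common sum, with either reduced sum, with a common luminal level and without Glycam1. Expi in day 13 Ezh2 KO was at 0.95 with a common sum and at 0.54 against Ezh1 KO. Counts over all genes moved by more than 1.5 times in 113 of 328 cases: in day 13 Ezh2 KO 378 genes were higher (136 to 600) and 940 lower (483 to 2507). Over the comparisons the median of all genes lay between -1.45 and 0.75 with a common luminal level and between -1.10 and 0.21 with a common sum. The pseudocount moved low virgin values most, as the ranges beside those results show. No paired analysis was possible because each column is 1 pooled value per group, and for the same reason no replicate could be left out. The cause of these moves was not tested.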

Other observations

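Lysozyme genes, which belong to the same protein family as Lalba, did not show the day 13 and day 18 differences of Lalba. Lyz2, the lysozyme gene of macrophages, was at 253 FPKM in day 13 Ezh2 KO against 399.8 in control, and at 231 in day 18 Ezh2 KO against 233 in control. Lyz1 was at 27.9 against 56.1 FPKM on day 13 and at 28.7 against 20.8 on day 18.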
